A study of Mus musculus with 11 samples.

Results

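Transcripts of Kupffer cells, the resident macrophages of the liver, were measured in preparations of isolated mouse hepatocytes. The 10 genes described here, *Clec4f*, *Timd4*, *Vsig4*, *Marco*, *Cd5l*, *Adgre1*, *Cd68*, *Ctss*, *Csf1r* and *Spi1*, were taken from 54232 genes in the count files by name, for their known expression in Kupffer cells or in macrophages in general. RNA was sequenced in 11 libraries from adult male mice of the C57BL/6 strain. Livers of *Xbp1* LKO mice lacked the transcription factor XBP1 through a Cre recombinase under the albumin promoter, which acts in hepatocytes, and *Xbp1* fl/fl mice were the controls. Each genotype received either chow or the HFS diet, rich in fat and sugar, over a period of up to 6 weeks. There were 3 *Xbp1* fl/fl libraries on chow, 2 *Xbp1* LKO libraries on chow, and 3 libraries of each genotype on HFS diet. On chow a library came from 1 mouse, and on HFS diet RNA of 2 mice was pooled per library, so pooling and diet cannot be told apart. The study's legend gives 3 *Xbp1* LKO mice on chow, and 2 such libraries were analysed here. Hepatocytes had been purified by Percoll density centrifugation, a step that separates them from lighter non-parenchymal cells. Total counts ranged from 19191032 to 23888401 per library.

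Kupffer cells line the liver sinusoids, where they take up bacteria, lipoproteins, senescent red cells and cell debris from portal blood. Most of them descend from embryonic precursors and renew themselves in place, with survival signals through the receptor CSF1R, while monocytes from blood can refill the niche when residents are lost. They adhere to hepatocytes and endothelial cells, and a low level of their RNA is common in hepatocyte isolates.

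The genotype labels were checked first. *Xbp1* measured 194, 200.3 and 221 CPM in the *Xbp1* fl/fl chow libraries and 95.7 and 128 CPM in the *Xbp1* LKO chow libraries. CPM are counts scaled by library size, here with totals adjusted by TMM so that the bulk of genes shows no difference between libraries. On HFS diet it measured 301, 295 and 242 CPM in *Xbp1* fl/fl and 117, 97.3 and 135 CPM in *Xbp1* LKO libraries. No *Xbp1* LKO library reached the lowest *Xbp1* fl/fl library, and the remaining counts cover the whole gene, including exons outside the deleted one. The log2 fold change of *Xbp1* between genotypes was -0.87 on chow (SE 0.18) and -1.26 on HFS diet (SE 0.16), with adjusted p = 0.018 and 0.0025 by edgeR's quasi-likelihood test after Benjamini-Hochberg adjustment. The chow call was lost without either *Xbp1* LKO chow library. It was also lost with library totals in place of TMM, with replicate number as a block, and in a fit of only the groups compared. The HFS call was kept in 11 of 11 fits that each left out 1 library, and in 7 of 7 other settings.

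The hepatocyte label was checked against 19 hepatocyte genes, all of which exceeded each of the 10 Kupffer cell genes in mean level per kilobase of exon. *Alb* averaged 27400 CPM per kilobase, 6630 times *Clec4f*. The 19 genes summed to 187400, 205600 and 210000 CPM in *Xbp1* fl/fl chow, 107000 and 71950 in *Xbp1* LKO chow, 161200, 163600 and 173200 in *Xbp1* fl/fl HFS, and 119500, 86110 and 92410 in *Xbp1* LKO HFS libraries. The libraries were hepatocyte preparations by these markers, and the sum was lower in every *Xbp1* LKO library than in every *Xbp1* fl/fl library on either diet.

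One library stood apart for the Kupffer cell genes. *Xbp1* fl/fl chow replicate 1 exceeded both other libraries of its group in all 10 genes, and for the comparisons that use its group, medians and ratios without it are given as well.

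The Kupffer cell surface receptors come first. *Clec4f*, a C-type lectin that in mice marks Kupffer cells, measured 17.1, 4.74 and 4.23 CPM in *Xbp1* fl/fl chow, 3.54 and 7.25 in *Xbp1* LKO chow, 13.0, 9.11 and 8.62 in *Xbp1* fl/fl HFS, and 12.7, 11.2 and 20.9 in *Xbp1* LKO HFS libraries. On HFS diet the genotypes overlapped, whereas the *Xbp1* LKO HFS libraries all lay above the *Xbp1* LKO chow libraries. *Timd4*, a receptor for phosphatidylserine on dying cells and a mark of long-lived residents, measured 2.59, 0.694 and 0.697 CPM in *Xbp1* fl/fl chow, 0.469 and 0.437 in *Xbp1* LKO chow, 1.14, 0.509 and 0.784 in *Xbp1* fl/fl HFS, and 0.611, 0.893 and 1.88 in *Xbp1* LKO HFS libraries. Both *Xbp1* LKO chow libraries lay below every other library for this gene, with 11 and 10 counts behind them. The nearest other library, *Xbp1* fl/fl HFS replicate 2, also had 10 counts, and *Xbp1* fl/fl chow replicates 2 and 3 had 12 and 14.

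*Vsig4*, the complement receptor CRIg that captures opsonized bacteria, measured 4.14, 0.751 and 1.10 CPM in *Xbp1* fl/fl chow, 0.981 and 1.88 in *Xbp1* LKO chow, 3.33, 2.55 and 2.01 in *Xbp1* fl/fl HFS, and 2.61, 3.35 and 5.98 in *Xbp1* LKO HFS libraries. *Marco*, a scavenger receptor for bacteria and particles, measured 2.37, 0.231 and 0.199 CPM in *Xbp1* fl/fl chow, 0.811 and 0.612 in *Xbp1* LKO chow, 0.715, 0.611 and 0.490 in *Xbp1* fl/fl HFS, and 1.18, 0.930 and 2.34 in *Xbp1* LKO HFS libraries. Both were highest in *Xbp1* fl/fl chow replicate 1 and *Xbp1* LKO HFS replicate 3. *Marco* spanned 11.9-fold between its highest and lowest library, the lowest resting on 4 counts.

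*Cd5l* encodes a secreted scavenger protein that macrophages release into plasma. It measured 18.2, 3.76 and 4.33 CPM in *Xbp1* fl/fl chow, 4.01 and 6.12 in *Xbp1* LKO chow, 11.7, 10.9 and 8.67 in *Xbp1* fl/fl HFS, and 11.5, 13.6 and 23.8 in *Xbp1* LKO HFS libraries. In each group its highest library was also the highest for *Clec4f*, and only the diets in *Xbp1* LKO mice were separated without overlap.

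The next genes are shared by most macrophages. *Adgre1*, the F4/80 antigen, measured 3.31, 0.867 and 0.697 CPM in *Xbp1* fl/fl chow, 0.981 and 1.35 in *Xbp1* LKO chow, 2.57, 2.39 and 1.96 in *Xbp1* fl/fl HFS, and 1.83, 2.57 and 4.75 in *Xbp1* LKO HFS libraries. *Cd68*, a glycoprotein of lysosomes, measured 2.43, 0.751 and 1.15 CPM in *Xbp1* fl/fl chow, 1.37 and 0.918 in *Xbp1* LKO chow, 1.14, 1.37 and 0.882 in *Xbp1* fl/fl HFS, and 2.12, 1.97 and 2.61 in *Xbp1* LKO HFS libraries. *Adgre1* overlapped between genotypes on HFS diet, while all *Xbp1* LKO HFS libraries exceeded the *Xbp1* fl/fl HFS libraries for *Cd68*. *Ctss*, the lysosomal protease cathepsin S that trims the invariant chain during antigen presentation, measured 6.12, 1.62 and 1.94 CPM in *Xbp1* fl/fl chow, 1.49 and 2.71 in *Xbp1* LKO chow, 3.67, 2.44 and 2.20 in *Xbp1* fl/fl HFS, and 3.59, 4.46 and 7.55 in *Xbp1* LKO HFS libraries. Its genotypes met on HFS diet at a single pair of libraries, since *Xbp1* fl/fl replicate 1 lay just above *Xbp1* LKO replicate 1.

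*Csf1r*, the receptor for the survival factors CSF1 and IL34, measured 12.2, 2.43 and 2.49 CPM in *Xbp1* fl/fl chow, 2.82 and 4.94 in *Xbp1* LKO chow, 6.48, 4.89 and 5.39 in *Xbp1* fl/fl HFS, and 6.80, 7.44 and 10.4 in *Xbp1* LKO HFS libraries. The *Xbp1* LKO HFS libraries lay above both *Xbp1* fl/fl HFS and *Xbp1* LKO chow libraries without overlap. Of its exon bases, 15.1% overlapped *Hmgxb3* on the opposite strand and were left out of its length, and the other 9 genes shared no exon base with another gene. *Spi1*, which encodes the myeloid transcription factor PU.1, measured 0.993, 0.347 and 0.199 CPM in *Xbp1* fl/fl chow, 0.0427 and 0.481 in *Xbp1* LKO chow, 0.143, 0.153 and 0.294 in *Xbp1* fl/fl HFS, and 0.285, 0.707 and 0.997 in *Xbp1* LKO HFS libraries. Its values rested on 1 to 26 counts, and its groups overlapped in all comparisons.

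**Figure D1:**
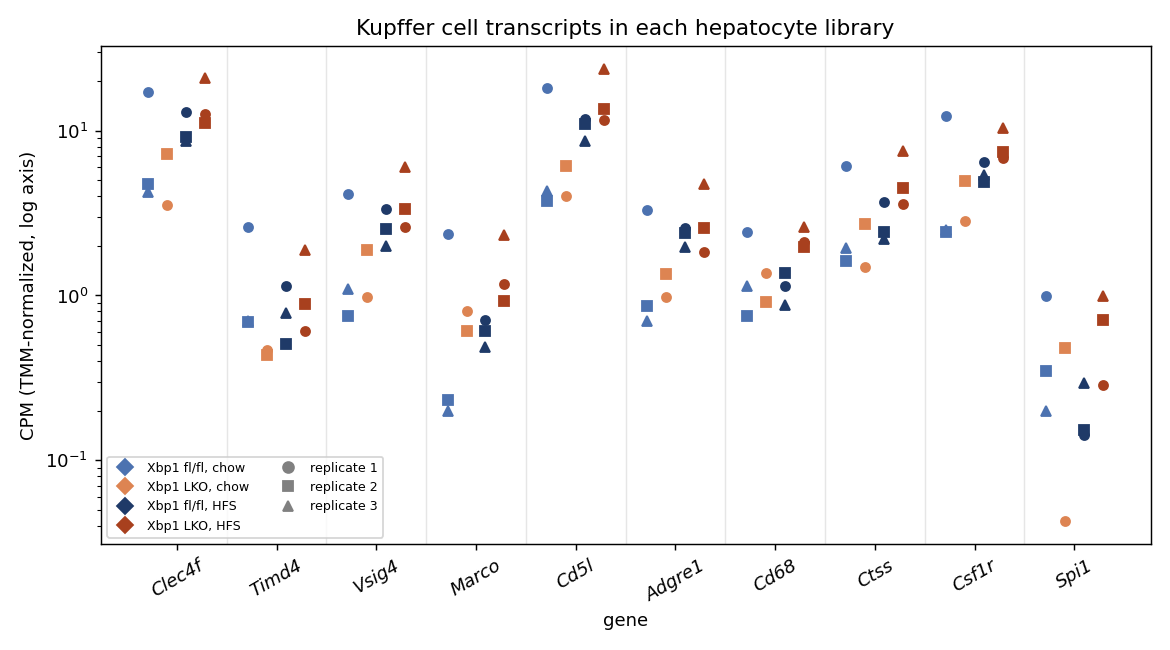
Level of each Kupffer cell gene in each of the 11 hepatocyte libraries, as TMM-normalized CPM on a log axis, with colour for genotype and diet group and marker shape for replicate. *Xbp1* fl/fl chow replicate 1 (pale blue circle) lies above the other libraries of its group for every gene, and *Xbp1* LKO HFS replicate 3 (dark red triangle) is the highest of its group.

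Per kilobase of exon, *Cd5l* was the most abundant member with a mean of 5.21 CPM, followed by *Clec4f* (4.13), *Ctss* (2.53), *Vsig4* (1.76), *Csf1r* (1.23) and *Cd68* (1.21). *Adgre1* (0.654), *Marco* (0.495), *Timd4* (0.448) and *Spi1* (0.157) were below 1 CPM per kilobase. Genes known from Kupffer cells in particular thus stood at both ends of this order. None of the 10 genes was at 0 in any library, and all 10 passed the filter on low counts.

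Within the pool of their own counts, the members kept similar shares from library to library. *Cd5l* took 22.9% to 31.3% of all member counts, *Clec4f* 21.4% to 29.5%, and *Csf1r* 12.8% to 18.5%. The 4 rarest were less steady, with *Cd68* at 2.61% to 8.27%, *Marco* at 1.17% to 4.91%, *Timd4* at 1.41% to 4.29% and *Spi1* at 0.258% to 2.14%. *Cd68* and *Marco* had their highest share in *Xbp1* LKO chow replicate 1. The chi-square of the table of 10 genes by 11 libraries was 2.18 per degree of freedom, where counting error alone gives about 1.

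The 10 genes summed to 69.4, 16.2 and 17.0 CPM in *Xbp1* fl/fl chow, 16.5 and 26.7 in *Xbp1* LKO chow, 43.9, 35.0 and 31.3 in *Xbp1* fl/fl HFS, and 43.2, 47.1 and 81.2 in *Xbp1* LKO HFS libraries. The highest library held 5.02 times the lowest. Group means were 57.2 ± 20.9 CPM (SD, n = 3) for *Xbp1* LKO on HFS diet, 36.7 ± 6.46 (SD, n = 3) for *Xbp1* fl/fl on HFS diet, 34.2 ± 30.5 (SD, n = 3) for *Xbp1* fl/fl on chow and 21.6 ± 7.20 (SD, n = 2) for *Xbp1* LKO on chow. Each step in this order was smaller than the larger SD of its pair. Without its replicate 1, the *Xbp1* fl/fl chow group had a mean of 16.6 ± 0.598 CPM (SD, n = 2), below that of *Xbp1* LKO on chow. In these bulk samples, fewer Kupffer cells in a preparation and less RNA of these genes per cell cannot be told apart.

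On chow, *Xbp1* LKO preparations had lower fitted values than *Xbp1* fl/fl preparations for 10 of 10 genes, but no difference passed the test and the direction rested on 1 library. Genes were tested with edgeR's quasi-likelihood test on all libraries at once, with Benjamini-Hochberg adjustment over 13303 genes and a threshold of 0.05. It called 0 of the 10 members, while 632 genes were called (4.75%). None had an unadjusted p below 0.05, beside 19.3% of all genes tested, and DESeq2 also called 0. The median log2 fold change of the members was -0.59, beside 0.0024 for all genes tested. *Timd4* had the largest difference (log2 fold change -1.54, SE 0.71, 95% interval -3.09 to 0.017) and an adjusted p of 0.266 by edgeR's quasi-likelihood test after Benjamini-Hochberg adjustment. It was also the 1 member whose *Xbp1* LKO libraries lay below all *Xbp1* fl/fl libraries, which held for 15.9% of all genes. Without *Xbp1* fl/fl chow replicate 1, 8 of 10 members had positive values, with a median of 0.29, and *Timd4* and *Spi1* stayed negative. The ratio of summed levels, *Xbp1* LKO over *Xbp1* fl/fl, was 0.632 with that library and 1.30 without it.

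On HFS diet, *Xbp1* LKO preparations had higher fitted values than *Xbp1* fl/fl preparations for 10 of 10 genes, with a median log2 fold change of 0.62 beside 0.0083 for all genes tested. None passed the threshold by edgeR or by DESeq2, where 543 genes were called by edgeR (4.08%). An unadjusted p below 0.05 was found for 17.5% of all genes tested and for 1 of the 10 members, *Cd68* (log2 fold change 0.98, SE 0.39, 95% interval 0.12 to 1.83, higher in 3 of 3 *Xbp1* LKO libraries), and its adjusted p was 0.22 by edgeR's quasi-likelihood test after Benjamini-Hochberg adjustment. The widest difference was that of *Spi1* (1.73, SE 0.80), on 3 to 26 counts per library. *Cd68*, *Csf1r* and *Marco* did not overlap between genotypes, being higher in every *Xbp1* LKO library, a separation that 13.6% of all genes showed. An exact permutation test of 3 against 3 libraries gave each of these 3 genes a p of 0.1, the smallest it can give. Summed levels were 1.56 times as high in *Xbp1* LKO libraries. Without *Xbp1* LKO HFS replicate 3, the median was 0.31 with 8 of 10 members positive, and the ratio of sums was 1.23. The count of 1 member with an unadjusted p below 0.05 was 6 without *Xbp1* fl/fl chow replicate 1, beside 18% of all genes. It was 0 without *Xbp1* fl/fl HFS replicate 1, *Xbp1* fl/fl HFS replicate 3 or *Xbp1* LKO HFS replicate 3 (14.5%, 14.2% and 14.7% of all genes). In a fit of only the groups compared it was 5 of 9 members (21%), and no member passed the adjusted threshold in these fits.

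In *Xbp1* fl/fl mice, diet gave no common direction among the members. Values were positive on HFS diet for *Clec4f*, *Cd5l*, *Adgre1* and *Vsig4* and negative for the other 6, with a median log2 fold change of -0.12 beside -0.0056 for all genes tested. edgeR and DESeq2 each called 0 members and none had an unadjusted p below 0.05 (8.95% of all genes tested), while 57 genes were called by edgeR (0.428%). No member separated the diets in either direction, compared with 6.33% of all genes higher and 7.34% lower on HFS diet without overlap. *Xbp1* fl/fl chow replicate 1 set this result. Without it, 9 of 10 members had positive values, 6 had an unadjusted p below 0.05 (9.86% of all genes in that fit) and none passed the adjusted threshold, and the median was 1.19. The ratio of sums, HFS over chow, was 1.07 with that library and 2.21 without it.

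In *Xbp1* LKO mice, all 10 members had higher fitted values on HFS diet than on chow, and their median difference was the largest of the 4 comparisons. Summed levels were 2.65 times as high, and the lowest HFS library (43.2 CPM) exceeded the highest chow library (26.7 CPM). The median log2 fold change was 1.32 beside -0.0027 for all genes tested. *Cd5l* led (log2 fold change 1.69, SE 0.60, 95% interval 0.38 to 2.99, higher in 3 of 3 HFS libraries), followed by *Vsig4* (1.47, SE 0.64), *Clec4f* (1.47, SE 0.56) and *Adgre1* (1.38, SE 0.61). These 4 genes and *Ctss* had an unadjusted p below 0.05, beside 12.7% of all genes tested. That count of 5 was 0 without *Xbp1* LKO HFS replicate 3 (median 0.92), 0 without *Xbp1* LKO chow replicate 1 (median 1.12) and 9 without *Xbp1* fl/fl chow replicate 1 (median 1.32), with 10 of 10 members positive each time, while 12.4%, 14.5% and 13.4% of all genes had such a p in these fits. None of the 10 passed the adjusted threshold by edgeR or DESeq2, the lowest adjusted p being 0.29 for *Cd5l* by edgeR's quasi-likelihood test after Benjamini-Hochberg adjustment. Only 8 genes of all tested were called by edgeR (0.0601%). Diets did not overlap for 9 of 10 members, the exception being *Spi1*, beside 16.7% of all genes. An exact permutation test of 3 against 2 libraries cannot give a p below 0.1.

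Whether the genotype effect differed by diet was tested as an interaction. edgeR called 0 members and 0 genes (0%), with 816 genes (6.13%) and 1 member, *Spi1*, at an unadjusted p below 0.05, and DESeq2 called 0 members and 31 genes. That count of 1 member was 5 without *Xbp1* fl/fl chow replicate 2 and 6 without *Xbp1* fl/fl chow replicate 3 (6.31% and 7.01% of all genes). It was 0 without *Xbp1* fl/fl chow replicate 1, *Xbp1* LKO HFS replicate 2 or *Xbp1* LKO HFS replicate 3 (7.18%, 5.11% and 6.1%). By DESeq2 it was 4 (3.31%), and no member passed the adjusted threshold in these fits. The interaction was positive for 10 of 10 members with a median of 1.37 on the log2 scale, beside 0.0093 for all genes. Without *Xbp1* fl/fl chow replicate 1 it was positive for 6 of 10, with a median of 0.30. The genotype effects on chow and on HFS diet were therefore not shown to differ. All of these comparisons share groups of libraries and are not independent of each other.

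**Figure D2:**
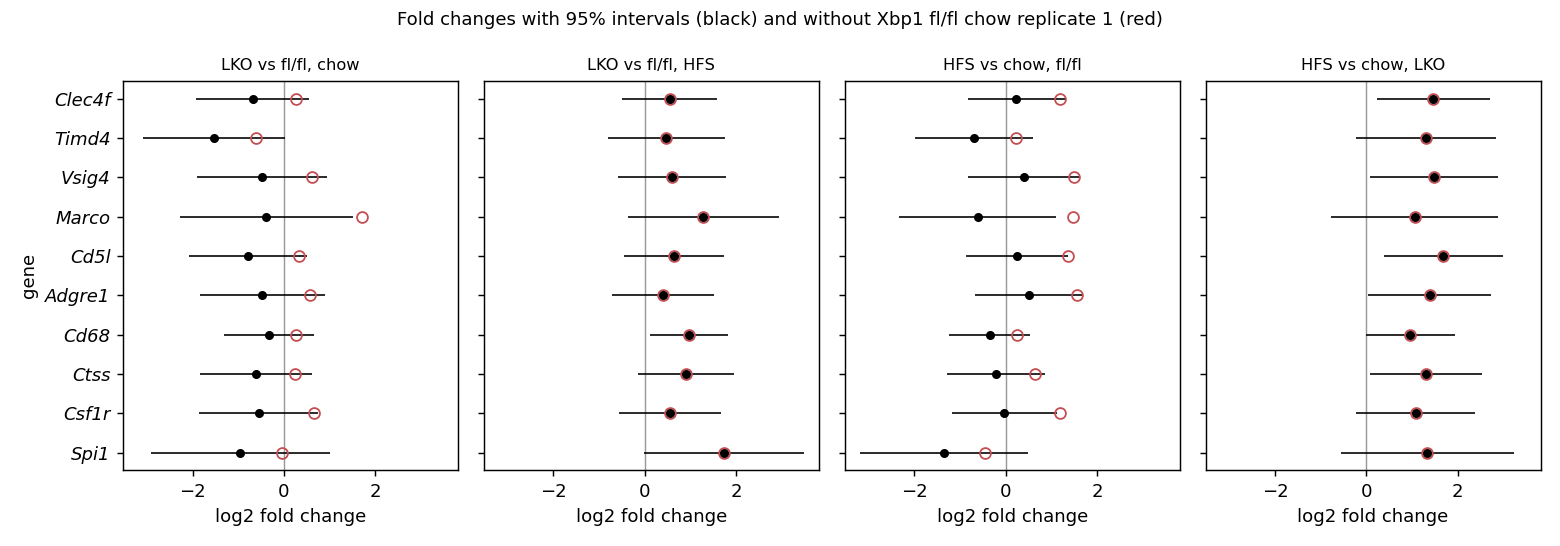
Log2 fold change of each Kupffer cell gene in each of the 4 comparisons, with all 11 libraries (black points, bars are 95% intervals from edgeR) and without *Xbp1* fl/fl chow replicate 1 (red circles). Most values move to the right of 0 without that library in the chow genotype comparison and in the *Xbp1* fl/fl diet comparison, and intervals exclude 0 mainly for *Xbp1* LKO mice on HFS diet over chow.

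Composition scaling mattered for levels between genotypes. With library totals in place of TMM, the median log2 fold change of all genes between genotypes moved to 0.33 on chow and 0.27 on HFS diet, and the members' medians to -0.26 and 0.89. No member changed sign in any of the 4 comparisons under that scaling. Without a filter on low counts, which fits the spread over 26016 genes, edgeR called 1 member between genotypes on chow (*Cd5l*), 2 on HFS diet (*Cd5l*, *Ctss*), 0 by diet in *Xbp1* fl/fl mice, 6 by diet in *Xbp1* LKO mice and 2 for the interaction. Of all genes in those fits, 5.79%, 5.53%, 1.92%, 2.78% and 1.03% were called, in the same order.

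Signalling partners of *Csf1r* and the factors that build macrophage identity were read from a list of 20 genes, of which 15 passed the filter. *Csf1*, the ligand made by several liver cell types, had log2 fold changes of 0.74 (SE 0.47) between genotypes on chow and 0.69 (SE 0.42) on HFS diet, neither past the threshold. *Il34*, the other ligand, was at 0 to 9 counts per library and was not tested. The median of the list was -0.15 between genotypes on chow, 0.18 on HFS diet, 0.32 by diet in *Xbp1* fl/fl mice and 1.01 by diet in *Xbp1* LKO mice. *Irf5*, an inflammatory factor of macrophages, fell between genotypes on chow (log2 fold change -1.28, SE 0.30, adjusted p = 0.0344 by edgeR's quasi-likelihood test after Benjamini-Hochberg adjustment), a call kept in 7 of 11 fits that each left out 1 library. The *Irf5* call was lost with replicate number as a block and in a fit of only the groups compared. *Irf5* averaged 4.66 CPM per kilobase, and its Pearson r with the mean of the members over the 11 libraries was 0.053. Which cells its RNA came from was not tested. *Cebpa* and *Cebpb*, at 202 and 42.7 CPM per kilobase, and *Lyn* exceeded every member in level, so the list's sum of 693 to 903.8 CPM did not follow the members.

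Of 20 further genes of Kupffer cell residents, 17 passed the filter. Their median log2 fold change was -0.45 between genotypes on chow, 0.15 on HFS diet, 0.0043 by diet in *Xbp1* fl/fl and 0.97 by diet in *Xbp1* LKO mice. The list was mixed, since 5 of its genes (*Nr1h3*, *Id3*, *Slc40a1*, *Lgmn* and *Pltp*) exceeded every member in level per kilobase, with *Nr1h3* at 45.3, *Id3* at 18.1 and *Slc40a1* at 15.5 CPM per kilobase. *Nr1h3* encodes the oxysterol receptor LXR alpha and *Slc40a1* the iron exporter ferroportin, and both are also expressed by hepatocytes. The summed list was 345.8 to 445.6 CPM and did not follow the members. *Id3*, a factor needed for Kupffer cell development and active in many cells, was higher in *Xbp1* LKO preparations on chow (log2 fold change 1.49, SE 0.34, adjusted p = 0.0312) and on HFS diet (1.32, SE 0.32, adjusted p = 0.0416) by edgeR's quasi-likelihood test after Benjamini-Hochberg adjustment, calls kept in 8 and 6 of 11 fits that each left out 1 library. *Pltp*, a phospholipid transfer protein, fell between genotypes on chow (-1.59, SE 0.39, adjusted p = 0.0414) and with HFS diet in *Xbp1* fl/fl mice (-2.28, SE 0.35, adjusted p = 0.0225) by edgeR's quasi-likelihood test, Benjamini-Hochberg adjusted, kept in 4 and 7 of 11. With replicate number as a block, *Id3* lost its call on both diets. A fit of only the groups compared ended the chow calls of *Id3* and *Pltp*. No gene of this list passed the threshold by diet in *Xbp1* LKO mice.

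Of 24 genes shared by many macrophages and other myeloid cells, 23 passed the filter, with median log2 fold changes of -0.060, 0.65, 0.065 and 0.96 in the same order of comparisons. *Ctsc*, the protease cathepsin C, was the 1 gene called. It fell between genotypes on chow (log2 fold change -3.79, SE 0.55, adjusted p = 0.00449 by edgeR's quasi-likelihood test after Benjamini-Hochberg adjustment) and on HFS diet (-1.76, SE 0.42, adjusted p = 0.0404 by the same edgeR test), kept in 10 and 4 of 11 fits that each left out 1 library. The HFS call was lost with replicate number as a block and in a fit of only the groups compared, and the chow call was kept in both. Levels of *Ctsc* were 82.0, 72.8 and 69.3 CPM in *Xbp1* fl/fl chow against 5.16 and 5.64 in *Xbp1* LKO chow libraries. *Ctsc* was thus high in all 3 *Xbp1* fl/fl chow libraries, where *Ctss* was high in replicate 1 alone. *Mpeg1* (14.6), *Lcp1* (11.5) and *Ctsc* (6.63 CPM per kilobase) exceeded every member and made up most of the list's sum of 169.2 to 376 CPM.

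Genes of monocytes were mixed in level. Of 16 genes of monocytes and monocyte-derived macrophages, 5 passed the filter and the other 11 averaged fewer than 5 counts per library. The chemokine receptor gene *Ccr2* had 27 counts in all libraries together, *Ly6c2* 22, *Cx3cr1* 25 and *Itgam* 9, and *Ccr2* was at 0 in 4 libraries and highest in *Xbp1* LKO HFS replicate 3 with 15 counts. These 4 genes were picked for display after their counts were seen. The medians of the 5 tested genes were -0.51, 0.45, 0.10 and 1.31 in the same order of comparisons, and none was called. *Cd9* (8.68 CPM per kilobase), *Spp1* (4.63) and *Plac8* (1.11) were the most abundant, and *Cd9* took most of the summed 13.7 to 44.6 CPM. *Spp1* is also in the cholangiocyte list.

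Neutrophil genes were sparse. The 10 neutrophil genes summed to 0.607, 0.520 and 0.199 CPM in *Xbp1* fl/fl chow, 0.427 and 2.01 in *Xbp1* LKO chow, 0.333, 2.70 and 1.42 in *Xbp1* fl/fl HFS, and 1.22, 6.25 and 6.79 in *Xbp1* LKO HFS libraries. All *Xbp1* fl/fl chow libraries were below 1 CPM, and the 2 highest sums were in *Xbp1* LKO HFS libraries. *S100a9*, *Ngp* and *S100a8* led at 1.07, 0.557 and 0.553 CPM per kilobase, and *Ly6g*, *Cxcr2* and *Mmp8* had 1 count each. The 4 tested genes had medians of 3.12, 1.84, 3.38 and 2.00 in the same order, none called. These genes had 0 to 3 counts in each *Xbp1* fl/fl chow library, so the medians against that group rest on values near 0. *Camp*, 1 of the 4, had 20 and 11 counts in *Xbp1* LKO HFS replicates 2 and 3 and at most 3 in any other library. Of 15 genes of B, T and NK cells and plasmacytoid dendritic cells, 13 averaged fewer than 5 counts and 2 were tested, with medians of 0.063, -0.41, 1.17 and 0.70. *Bst2* (161 CPM per kilobase), an interferon-induced membrane protein of many cells, made up nearly all of their 101.3 to 198.5 CPM, ahead of *Cd4* (0.422) and *Nkg7* (0.0386). *Bst2* fell between genotypes on chow (log2 fold change -0.52, SE 0.13, adjusted p = 0.0403 by edgeR's quasi-likelihood test after Benjamini-Hochberg adjustment) and *Cd4* rose with HFS diet in *Xbp1* fl/fl mice (1.99, SE 0.35, adjusted p = 0.0422 by the same edgeR test), kept in 4 and 2 of 11 fits that each left out 1 library. Both calls were lost with replicate number as a block and in fits of only the groups compared. The *Bst2* call was also lost with library totals and without a filter on low counts.

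Transcripts of other non-parenchymal cells shared part of the members' pattern. The 18 sinusoidal endothelial genes summed to 219, 85.8 and 118 CPM in *Xbp1* fl/fl chow, 64.4 and 51.7 in *Xbp1* LKO chow, 284, 164 and 244 in *Xbp1* fl/fl HFS, and 235.5, 138 and 133 in *Xbp1* LKO HFS libraries. None was at 0 in any library, *Clec4g* (3.81), *Eng* (3.28) and *Stab2* (2.69) led per kilobase, and *Stab2* or *Ptprb* was the most abundant in CPM. Of the 18, 0 had positive log2 fold changes between genotypes on either diet (medians -1.34 on chow and -0.42 on HFS diet), and 18 were positive by diet in each genotype (0.75 in *Xbp1* fl/fl, 1.55 in *Xbp1* LKO), with none called. Like the summed members, their sum was the highest of its group in *Xbp1* fl/fl chow replicate 1. Unlike the summed members, their sum was lower in both *Xbp1* LKO chow libraries than in every *Xbp1* fl/fl chow library, and their fitted values on HFS diet were lower in *Xbp1* LKO than in *Xbp1* fl/fl preparations. *Mrc1* belongs to this list and to that of Kupffer cell residents.

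The 14 stellate cell genes summed to 66.3, 19.7 and 24.7 CPM in *Xbp1* fl/fl chow, 14.2 and 17.0 in *Xbp1* LKO chow, 61.9, 41.4 and 34.7 in *Xbp1* fl/fl HFS, and 81.6, 50.2 and 39.6 in *Xbp1* LKO HFS libraries. *Ecm1* (4.40), *Dcn* (1.55) and *Colec11* (1.16) led per kilobase, while *Acta2*, a marker of activated stellate cells, was at 0 in 9 libraries. Medians of the 11 tested genes were -1.20, 0.37, 0.45 and 2.26 in the order of comparisons used above, and none was called. The sum was highest in *Xbp1* LKO HFS replicate 1, where the members were lowest of that group. The part of endothelial and stellate cell RNA in the members' differences was not tested.

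The members over the endothelial sum gave ratios of 0.317, 0.189 and 0.144 in *Xbp1* fl/fl chow, 0.256 and 0.516 in *Xbp1* LKO chow, 0.154, 0.213 and 0.128 in *Xbp1* fl/fl HFS, and 0.184, 0.342 and 0.611 in *Xbp1* LKO HFS libraries. These overlapped between genotypes on both diets, and between diets in both genotypes. The excess of *Xbp1* fl/fl chow replicate 1 over its group was smaller on this scale than in CPM. Over the stellate cell sum, the ratios were 1.05, 0.824 and 0.691 in *Xbp1* fl/fl chow, 1.16 and 1.57 in *Xbp1* LKO chow, 0.709, 0.845 and 0.903 in *Xbp1* fl/fl HFS, and 0.529, 0.938 and 2.05 in *Xbp1* LKO HFS libraries. On chow these were higher in both *Xbp1* LKO libraries than in every *Xbp1* fl/fl library, opposite in direction to the fitted values of the members, and the other comparisons overlapped.

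**Figure D3:**
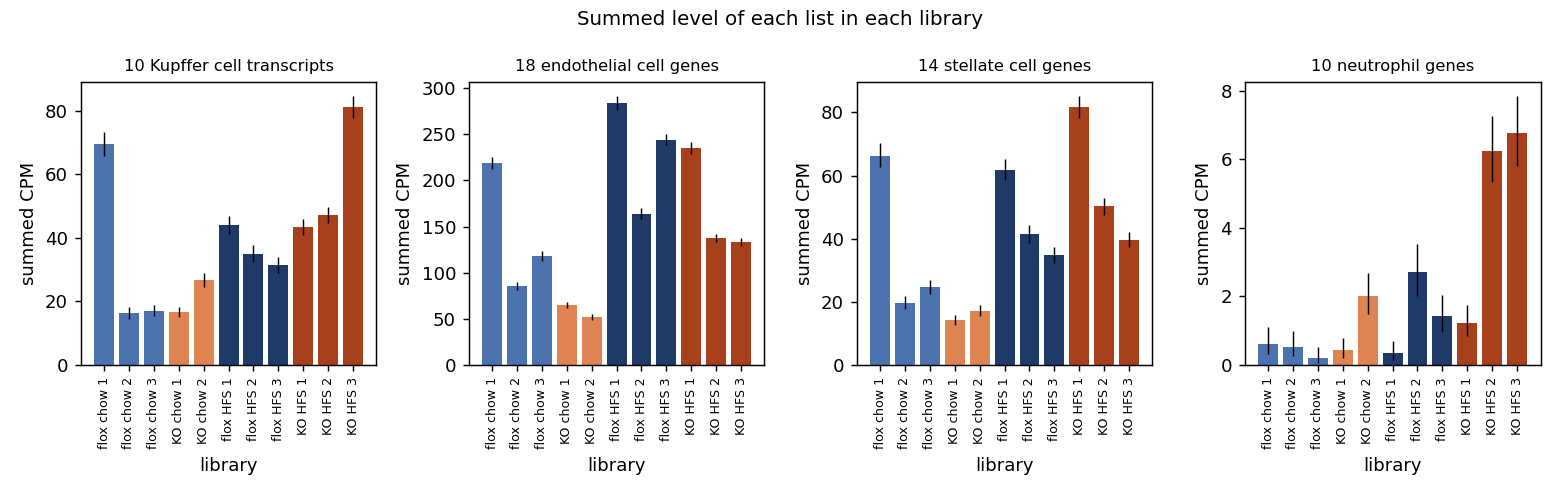
Summed CPM of 10 Kupffer cell, 18 endothelial, 14 stellate cell and 10 neutrophil genes in each library (bars, linear axes from 0, "flox" for *Xbp1* fl/fl and "KO" for *Xbp1* LKO), with 95% intervals that cover counting error only. The first 3 panels share a high *Xbp1* fl/fl chow replicate 1, and only the first and the last have their highest bar in *Xbp1* LKO HFS replicate 3.

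Of 10 cholangiocyte genes, 3 were tested (medians -0.47, 0.39, -0.13 and 0.064), led per kilobase by *Anxa4* (13.0), *Spp1* (4.63) and *Sox9* (0.705), and *Sox9* fell between genotypes on chow (log2 fold change of -1.54, SE 0.31, adjusted p = 0.0167 by edgeR's quasi-likelihood test after Benjamini-Hochberg adjustment, kept in 9 of 11 fits that each left out 1 library). Their sum of 53.6 to 94.5 CPM was mostly *Anxa4*. The *Sox9* call was lost in a fit of only the groups compared. Of 7 genes of red cells and platelets only *Alas2* (72.6 CPM per kilobase) was tested (0.038, 0.27, -0.12 and 0.11). The globin genes *Hbb-bs* and *Hbb-bt* were at 0.122 and 0.104 CPM per kilobase. The sum of 117.8 to 181.2 CPM was nearly all *Alas2*.

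The list medians that use the *Xbp1* fl/fl chow group were computed again without its replicate 1, a step added after the data were seen. Between genotypes on chow they were -0.012 for residents, 0.81 for genes shared by macrophages, -0.022 for the *Csf1r* partners, -0.094 for monocytes, -0.88 for endothelial and -0.23 for stellate cells. By diet in *Xbp1* fl/fl mice they were 0.78, 0.95, 0.71, 0.57, 1.23 and 1.23 in the same order of lists. Endothelial genes thus kept negative values for 18 of 18 between genotypes on chow, while 4 of 11 stellate cell genes were positive. The other medians follow, first between genotypes on chow and then by diet. They were 3.05 and 3.20 for neutrophils, again against *Xbp1* fl/fl chow counts near 0. They were 0.19 and 1.30 for lymphocytes, -0.20 and -0.27 for cholangiocytes, -0.095 and -0.26 for red cells, and -0.62 and 0.023 for hepatocytes.

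Hepatocyte genes had negative medians between genotypes on both diets. The 19 tested had medians of -0.61, -0.64, -0.037 and -0.099 in the order of comparisons used above, led by *Alb*, *Apoa2* (13630 CPM per kilobase) and *Apoa1* (6604). Between genotypes on chow *Alb*, *Serpina1a*, *Serpina1c* and *F2* fell (log2 fold changes -2.14, -0.95, -0.84 and -0.86), and on HFS diet *Apoa1*, *Serpina1c* and *F2* fell (-1.45, -0.84 and -0.93). These 7 calls passed edgeR's quasi-likelihood test after Benjamini-Hochberg adjustment and were kept in 1 to 10 of 11 fits that each left out 1 library. The chow calls of *Alb*, *Serpina1a*, *Serpina1c* and *F2* were lost in a fit of only the groups compared. Replicate number as a block ended the calls of *F2* on chow and *Serpina1c* on both diets, and library totals ended that of *Serpina1c* on chow.

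The members followed one another across libraries. The log2 CPM of a member correlated with the mean of the other 9 at Pearson r of 0.976 for *Ctss*, 0.970 for *Csf1r*, 0.964 for *Cd5l*, 0.950 for *Clec4f*, 0.948 for *Vsig4* and 0.926 for *Adgre1*, and at 0.856 for *Marco*, 0.782 for *Cd68*, 0.762 for *Timd4* and 0.677 for *Spi1* (11 libraries). The weaker values belonged to genes with low counts. These r describe 11 libraries that share groups and preparation, and no p is attached.

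Outside the members, 11123 genes with a mean of at least 1 CPM were ranked by r with the members' mean over the same 11 libraries, where the median r was -0.022. The first was *C1qb* (Pearson r 0.984, Spearman rho 1, and r 0.993 without the 2 farthest libraries), a chain of complement component C1q that macrophages secrete. Its partner chains *C1qc* (r 0.961, rho 0.955) and *C1qa* (0.935, 0.945) were also among the first 10. *Axl*, a receptor tyrosine kinase for the uptake of dying cells, came second (0.962, 0.955). The rest of the first 10 were the integrin gene *Itgal* (0.935, 0.945), lysozyme *Lyz2* (0.932, 0.945), the endothelial junction gene *Jcad* (0.923, 0.909), the NADPH oxidase subunit *Cybb* (0.917, 0.955), the syndecan *Sdc3* (0.913, 0.891) and the laminin chain *Lama5* (0.912, 0.873). Without the 2 farthest libraries, r of these last 6 genes was 0.811 to 0.935. Of the 10, 6 belonged to the macrophage lists. *C1qb* measured 7.06, 1.56 and 1.84 CPM in *Xbp1* fl/fl chow, 1.88 and 2.88 in *Xbp1* LKO chow, 4.14, 3.67 and 3.28 in *Xbp1* fl/fl HFS, and 4.56, 5.80 and 8.01 in *Xbp1* LKO HFS libraries. It had the same high and low libraries as *Cd5l* and, like the members, no call in any comparison.

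The bases before the transcription starts of 3 members are shown as a description of sequence. A link between these sequences and the members' levels was not tested. RefSeq sequences for GRCm38.p6 were matched for 7 members, and *Adgre1*, *Csf1r* and *Spi1* had no entry. The core of the PU.1 binding motif was searched as GAGGAA on both strands in the 250 bases upstream. It occurred in 5 of 7 members (*Cd5l*, *Cd68*, *Ctss*, *Marco* and *Vsig4*) and in 23.3% of 32851 promoters. The windows shown are those of *Cd5l* (chr3:87357631-87357880, plus strand), *Ctss* (chr3:95526536-95526785, plus strand) and *Vsig4* (chrX:96293439-96293688, minus strand). Each lies outside the annotated span of its own gene, and overlap with other genes was not checked. They are printed 5′ to 3′ on the gene's strand, with each match to GAGGAA in capitals. In *Cd5l* the match reads TTCCTC because it lies on the other strand.
Cd5l: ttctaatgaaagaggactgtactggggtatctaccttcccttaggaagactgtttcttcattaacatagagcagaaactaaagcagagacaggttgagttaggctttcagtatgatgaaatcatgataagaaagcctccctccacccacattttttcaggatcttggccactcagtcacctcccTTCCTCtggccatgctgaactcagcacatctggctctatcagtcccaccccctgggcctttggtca
Ctss: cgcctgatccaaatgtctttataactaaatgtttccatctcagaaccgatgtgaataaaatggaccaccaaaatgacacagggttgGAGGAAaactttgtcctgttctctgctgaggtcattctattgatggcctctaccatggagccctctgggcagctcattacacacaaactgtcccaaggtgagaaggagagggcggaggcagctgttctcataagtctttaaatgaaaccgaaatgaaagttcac
Vsig4: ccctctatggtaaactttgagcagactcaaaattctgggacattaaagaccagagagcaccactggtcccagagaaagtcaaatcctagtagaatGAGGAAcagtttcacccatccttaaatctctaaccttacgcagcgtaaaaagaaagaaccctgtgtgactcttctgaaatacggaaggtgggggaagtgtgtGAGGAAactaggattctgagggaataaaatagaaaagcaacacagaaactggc
The GAGGAA match stood 66 to 61 bases upstream in *Cd5l*, 164 to 159 in *Ctss*, and 155 to 150 and 53 to 48 in *Vsig4*. A match of letters describes the sequence and is not evidence of binding.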

How the data were processed

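Per the labels, the authors trimmed reads with cutadapt 1.13, aligned them to mm10 with STAR and made a count per Ensembl gene with HTSeq 0.6.1p1, and whole-number counts were deposited without scaling. The study's text names kallisto and tximport instead. In the deposited counts, 217 of 220 genes lying wholly inside a gene of the same strand were at 0 in every library, and of 266 genes inside a gene of the opposite strand 5 had any count, which is the pattern of counting by overlap without use of strand. The kit is given as stranded mRNA in the text and as total RNA in the labels.

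Gene names and exon lengths came from GENCODE M21 (GRCm38), which held 54165 of the 54232 identifiers. Counts were tested with edgeR 4.0.16 in R 4.3.3 (quasi-likelihood F test, TMM factors, filterByExpr with a minimum count of 10, 1 coefficient per group over 11 libraries, Benjamini-Hochberg adjustment over 13303 genes, threshold 0.05), and with DESeq2 1.42.0 as an alternative. Positive log2 fold changes are higher in *Xbp1* LKO or on HFS diet. CPM for correlations were log2 values with a prior count of 2. Intervals of counts and sums cover counting error only. The 10 members and the lists of cell type genes were chosen with earlier results of these data known.

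Genes were named by rule: the 10 members, the 10 genes with the highest correlation with their mean, the 3 most abundant genes per kilobase of each list and any list gene past the threshold, and *Xbp1* and *Alb*. A gene that this rule names is not reported here. *Csf1*, *Il34*, *Lyn*, *Lgmn*, *Hmgxb3*, *Ptprb*, *Mrc1*, *Acta2*, *Ccr2*, *Ly6c2*, *Cx3cr1*, *Itgam*, *Ly6g*, *Cxcr2*, *Mmp8* and *Camp* were named after their values were seen. Alternatives were RLE size factors, library totals, no filter, a minimum count of 30, replicate number as a block, only the groups compared, and each library left out in turn. Their use for list genes, list medians and *Xbp1* was added after the data were seen.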

Additional observations from a re-analysis of the deposited data

How the results depend on the processing

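Limits first: groups held 2 or 3 libraries, pooling went with diet, and the members rested on few counts. Under other settings 684 single member values kept direction and call, 21 turned and 9 gained a call. DESeq2 called 1115 genes between genotypes on chow, 981 on HFS diet, 175 by diet in *Xbp1* fl/fl mice, 208 by diet in *Xbp1* LKO mice and 31 for the interaction, with 0 members in each. Without a filter on low counts these numbers were 1507, 1438, 499, 722 and 269, with 1, 2, 0, 6 and 2 members called, and the lowest adjusted p of a member by edgeR's quasi-likelihood test (Benjamini-Hochberg) was 6.7e-09 for *Cd5l* by diet in *Xbp1* LKO mice. Library totals gave 3000 and 1483 genes between genotypes on chow and HFS diet, with 89.5% and 86.9% of calls higher in *Xbp1* LKO against 36.4% and 47.1% with TMM. Fits of only the groups compared called 233 genes between genotypes on chow and 809 on HFS diet. By diet they called 38 genes in *Xbp1* fl/fl mice and 0 in *Xbp1* LKO mice, and the interaction could not be fitted that way. Replicate numbers of the sample titles did not pair the libraries, since 4 of 11 correlated best with their own number and r of the 15 same-number pairs ranged from -0.20 to 0.23. The second *Xbp1* LKO chow library has number 2 in its title and number 3 in the name of its count file, and only the title's number was used. As a block these numbers gave 19 genes by diet in *Xbp1* LKO mice and a *Csf1r* value of 0.11 by diet in *Xbp1* fl/fl mice.

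With each library left out in turn, 69 to 762 genes were called between genotypes on chow, 184 to 662 on HFS diet, 6 to 59 by diet in *Xbp1* fl/fl mice, 0 to 36 by diet in *Xbp1* LKO mice and 0 for the interaction, and 0 members in every case. Log2 fold changes between genotypes on chow ranged from -1.29 to 0.27 for *Clec4f*, -1.15 to 0.32 for *Cd5l*, -0.65 to 0.26 for *Cd68*, -0.84 to 0.58 for *Adgre1*, -1.02 to 0.65 for *Csf1r*, -1.11 to 0.23 for *Ctss*, -1.02 to 0.62 for *Vsig4* and -0.87 to 1.70 for *Marco*, with each positive end found without *Xbp1* fl/fl chow replicate 1. On HFS diet the ranges were -0.11 to 0.80 for *Timd4* and -0.067 to 0.66 for *Adgre1*, the low ends without *Xbp1* LKO HFS replicate 3. By diet in *Xbp1* fl/fl mice they were -0.096 to 1.19 for *Clec4f*, -0.10 to 1.36 for *Cd5l*, -1.03 to 0.23 for *Timd4*, -0.65 to 0.25 for *Cd68*, -0.39 to 1.18 for *Csf1r*, -0.53 to 0.64 for *Ctss* and -1.10 to 1.47 for *Marco*. *Clec4f* was -0.054 without *Xbp1* fl/fl chow replicate 2, *Cd5l* -0.072 without replicate 3, and *Csf1r* 0.059 without *Xbp1* fl/fl HFS replicate 2. Ratios of summed members ranged from 0.483 to 1.30 between genotypes on chow and from 0.850 to 2.21 by diet in *Xbp1* fl/fl mice. Of the 10 genes most like the members, 10 stayed with a prior count of 0.5 or library totals and 5 with each gene centred on its group means. The calls of list genes and *Xbp1*, tried after the data were seen, kept their direction throughout, with 255 values the same and 105 without the call. Of the list medians computed without *Xbp1* fl/fl chow replicate 1, also after the data were seen, 12 moved by more than 1 SD and 10 did not. That SD was the spread between replicates of the log2 summed CPM of a list, not the spread of the median.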
